A study of Mus musculus with 24 samples.

Results

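A set of 7 genes of cholesterol synthesis, Hmgcs1, Mvd, Idi1, Sqle, Lss, Nsdhl and Sc5d, were followed across the groups of a diet and genotype study of old mouse kidney. They were taken by symbol from the deposited normalized table, where all 7 had a row among 16921 genes, and all 7 were among the 15165 genes tested. Every member encodes an enzyme of the synthesis pathway. No member encodes a lipoprotein receptor, so the set is described here as sterol synthesis genes.

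Cholesterol is made from acetyl-CoA by way of mevalonate, which is built into isoprenoid units, then squalene, then lanosterol, whose ring is trimmed and reduced to cholesterol. The genes for these enzymes are known targets of SREBP transcription factors, which are released from the endoplasmic reticulum when its cholesterol is low and bind sterol regulatory elements beside NF-Y and Sp1 sites. Kidney tubule cells both make cholesterol and take it up from lipoproteins.

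All mice were males on the C57BL6/J background. Wild type (WT) mice and FGF21 KO mice (KO, lacking the hormone FGF21) received their diets from 3 months of age and were studied at 22 months. Casein was the protein of both diets, at 20% in the normal protein diet (NP) and 5% in the low protein diet (LP), with free access to food. The groups WT_NP, WT_LP, KO_NP and KO_LP held 6 libraries each, 24 in all, made from kidney cortex with Lexogen QuantSeq, which reads the 3' ends of transcripts. The labels do not say how the KO allele was made, in which tissues it acts or whether WT mice were littermates, and Fgf21 itself is not analysed here, so the KO label was not checked by its target. Replicate numbers are names only. No label states outright that each library is a different mouse, so p-values measure the spread between these libraries, part of which may be technical.

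Library totals ran from 8.47 to 21.1 M counts, with 10.6 to 21.1 M in WT and 8.47 to 16.3 M in KO, so depth and genotype were partly confounded. The 10 proximal tubule markers, all in the table, summed to 4084 to 10318 CPM (counts per M, scaled by library) in the 24 libraries. Libraries KO_LP 4, KO_LP 5, KO_LP 6 and WT_NP 1 stood apart in cell type markers. KO_LP 4 had the highest summed macrophage and dendritic cell markers (1954 CPM), followed by WT_NP 1 (1518 CPM). KO_LP 5 had the highest sum of T, B and plasma cell markers (1192 CPM), also followed by WT_NP 1 (666 CPM). Most of the KO_LP 5 sum was 1 gene, Jchain (1083 CPM). KO_LP 6 had the highest adipocyte sum (439 CPM, against at most 174 CPM elsewhere) and adrenal cortex sum (15.6 CPM, against at most 3.75 CPM elsewhere). Each of these sums was almost all 1 gene, Fabp4 (437 of 439 CPM) and Akr1b7 (14.8 of 15.6 CPM). Over the 24 libraries, Adipoq reached at most 4.14 CPM, Cfd 11.3 CPM and Star 1.26 CPM, none of them in KO_LP 6. The adipocyte and adrenal cortex sums of KO_LP 6 thus do not show a rise of the other markers. The calls of the members are given with and without KO_LP 4 and KO_LP 6. All 5 of these calls were kept without WT_NP 1, and all but that of Sqle without KO_LP 5. In bulk tissue, fewer cells of a type and less RNA per cell cannot be told apart.

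RefSeq promoter windows (GRCm38.p6) matched 6 of the 7 members. The windows of Mvd, Nsdhl and Sc5d are shown for their adjusted p in the comparisons that follow, and that of Hmgcs1 for its sterol regulatory element, each as the 250 bases before the annotated start, on the gene's strand. Capitals mark matches, on either strand, to a sterol regulatory element written TCACNCCAC and to the NF-Y box, CCAAT. On the opposite strand the NF-Y box reads as ATTGG. The coordinates are chr13:119690101-119690350 on the plus strand for Hmgcs1, chr8:122443423-122443672 on the minus strand for Mvd, chrX:72918271-72918520 on the plus strand for Nsdhl and chr9:42264301-42264550 on the minus strand for Sc5d.
Hmgcs1: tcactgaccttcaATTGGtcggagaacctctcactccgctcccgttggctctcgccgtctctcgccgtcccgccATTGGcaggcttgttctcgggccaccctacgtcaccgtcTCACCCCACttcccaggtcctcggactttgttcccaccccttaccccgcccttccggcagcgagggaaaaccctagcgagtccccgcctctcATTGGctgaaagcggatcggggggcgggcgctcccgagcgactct
Mvd: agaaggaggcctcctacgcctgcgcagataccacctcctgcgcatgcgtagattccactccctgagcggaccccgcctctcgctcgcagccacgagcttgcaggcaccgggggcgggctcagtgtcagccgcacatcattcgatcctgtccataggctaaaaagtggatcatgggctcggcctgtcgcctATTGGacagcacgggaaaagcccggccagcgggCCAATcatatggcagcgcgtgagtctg
Nsdhl: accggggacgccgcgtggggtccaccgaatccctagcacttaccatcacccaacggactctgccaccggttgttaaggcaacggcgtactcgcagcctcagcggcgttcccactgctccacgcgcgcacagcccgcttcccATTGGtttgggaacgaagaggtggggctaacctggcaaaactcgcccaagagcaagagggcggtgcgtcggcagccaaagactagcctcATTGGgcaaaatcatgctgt
Sc5d: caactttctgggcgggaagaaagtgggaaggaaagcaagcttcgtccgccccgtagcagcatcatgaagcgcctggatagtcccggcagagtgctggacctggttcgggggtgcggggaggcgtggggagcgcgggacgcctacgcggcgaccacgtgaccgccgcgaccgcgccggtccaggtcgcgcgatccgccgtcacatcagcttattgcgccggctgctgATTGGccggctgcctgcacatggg

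The sterol regulatory element letters occurred in 1 of the 6 member windows, that of Hmgcs1, from 137 to 129 bases before its start, and in 1.05% of all 32851 windows of the same length. CCAAT occurred in 6 of 6 member windows and in 33.8% of all windows. Hmgcs1 carried 3 CCAAT matches, Mvd and Nsdhl 2 each, and Sc5d 1. The Sp1 box GGGCGG also occurred in 6 of 6 member windows, against 32.7% of all, and the E-box CACGTG in 1 of 6, that of Sc5d, against 6.02%. No match overlapped a match to another of these motifs. The matches are a description of the letters in these windows, and binding was not measured.

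Levels in CPM are counts scaled by library size and a TMM factor, and each member is given by its lowest, median and highest library. In the mevalonate arm, Hmgcs1 (GRCm38 chromosome 13, 119690379 to 119708260) makes HMG-CoA, the precursor of mevalonate. Hmgcs1 stood at 260, 401 and 474 CPM in WT_NP and at 275, 356 and 418 CPM in WT_LP. In KO it stood at 375, 417 and 447 CPM on NP and at 224, 339 and 393 CPM on LP. The KO_NP libraries lay within a narrow range at the upper end, and 2 KO_LP libraries, KO_LP 1 and KO_LP 3, reached into it.

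Mvd (chromosome 8, 122433601 to 122443422) decarboxylates mevalonate diphosphate to isopentenyl diphosphate. Mvd had a lowest, median and highest level of 28.0, 32.6 and 45.5 CPM in WT_NP and 26.2, 34.4 and 44.8 CPM in WT_LP. In KO, the same values were 36.0, 41.9 and 46.0 CPM on NP and 21.1, 30.1 and 33.9 CPM on LP. The WT groups covered nearly the same range, whereas every KO_LP library lay below every KO_NP library.

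Idi1 (chromosome 13, 8885501 to 8892451) isomerises isopentenyl diphosphate. Idi1 had only 6 to 24 counts per library, so each of its values carries a large counting error. Its lowest, median and highest levels were 0.521, 0.763 and 1.28 CPM in WT_NP, 0.483, 0.703 and 1.03 CPM in WT_LP, 0.644, 1.18 and 1.69 CPM in KO_NP, and 0.459, 0.524 and 0.859 CPM in KO_LP. In KO, 5 of the 6 NP libraries lay above every LP library, and KO_NP 2 lay among them. The neighbouring gene Idi2 on the same chromosome encodes a close relative and has no row in the deposited tables. Reads of the pair could still have been assigned either way.

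Sqle (chromosome 15, 59315077 to 59331192) epoxidises squalene. Sqle levels (lowest, median, highest) were 24.9, 32.2 and 43.8 CPM in WT_NP and 23.96, 27.5 and 34.6 CPM in WT_LP. They were 26.0, 35.2 and 46.3 CPM in KO_NP and 20.9, 25.5 and 30.2 CPM in KO_LP. Library KO_NP 6 lay inside the KO_LP range, and the other 5 lay above it. Lss (chromosome 10, 76531588 to 76557138) cyclises the epoxide to lanosterol. Lss averaged 8.63 ± 1.34 CPM in WT_NP, 8.87 ± 1.41 in WT_LP, 9.24 ± 1.14 in KO_NP and 8.10 ± 0.658 in KO_LP (SD, n = 6 each). Lss ran from 6.59 to 10.9 CPM over all 24 libraries, with overlap between all groups.

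Nsdhl (chromosome X, 72918557 to 72958514) helps remove methyl groups from the sterol ring. Its lowest, median and highest levels were 32.7, 35.2 and 45.9 CPM in WT_NP, 27.4, 32.3 and 39.2 CPM in WT_LP, 39.1, 43.3 and 48.8 CPM in KO_NP, and 17.2, 30.1 and 34.2 CPM in KO_LP. As for Mvd, all KO_LP libraries lay below all KO_NP libraries, and KO_LP 6 was far below the rest of its group. Sc5d (chromosome 9, 42251595 to 42264256) adds a late double bond to the ring. Sc5d levels were 20.0, 26.5 and 36.1 CPM in WT_NP, 22.0, 26.9 and 33.5 CPM in WT_LP, 13.7, 19.9 and 28.6 CPM in KO_NP, and 12.7, 16.9 and 19.3 CPM in KO_LP. All KO_LP libraries of Sc5d lay below all WT libraries, while 5 of the 6 KO_NP libraries lay below the WT_NP mean and the NP groups overlapped.

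The order of the group means was KO_NP, WT_NP, WT_LP and KO_LP, from high to low, for 5 members (Hmgcs1, Mvd, Idi1, Sqle and Nsdhl). For none of these 5 did neighbours in that order differ by the adjusted test. The order was KO_NP, WT_LP, WT_NP and KO_LP for Lss, and WT_LP, WT_NP, KO_NP and KO_LP for Sc5d. Hmgcs1, Mvd, Idi1 and Lss each overlap an annotated gene on the opposite strand, none of which has a row in the deposited tables. Whether the counting used strand is not given in the sources used here, so reads of such a pair could be assigned to either gene.

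**Figure D1:**
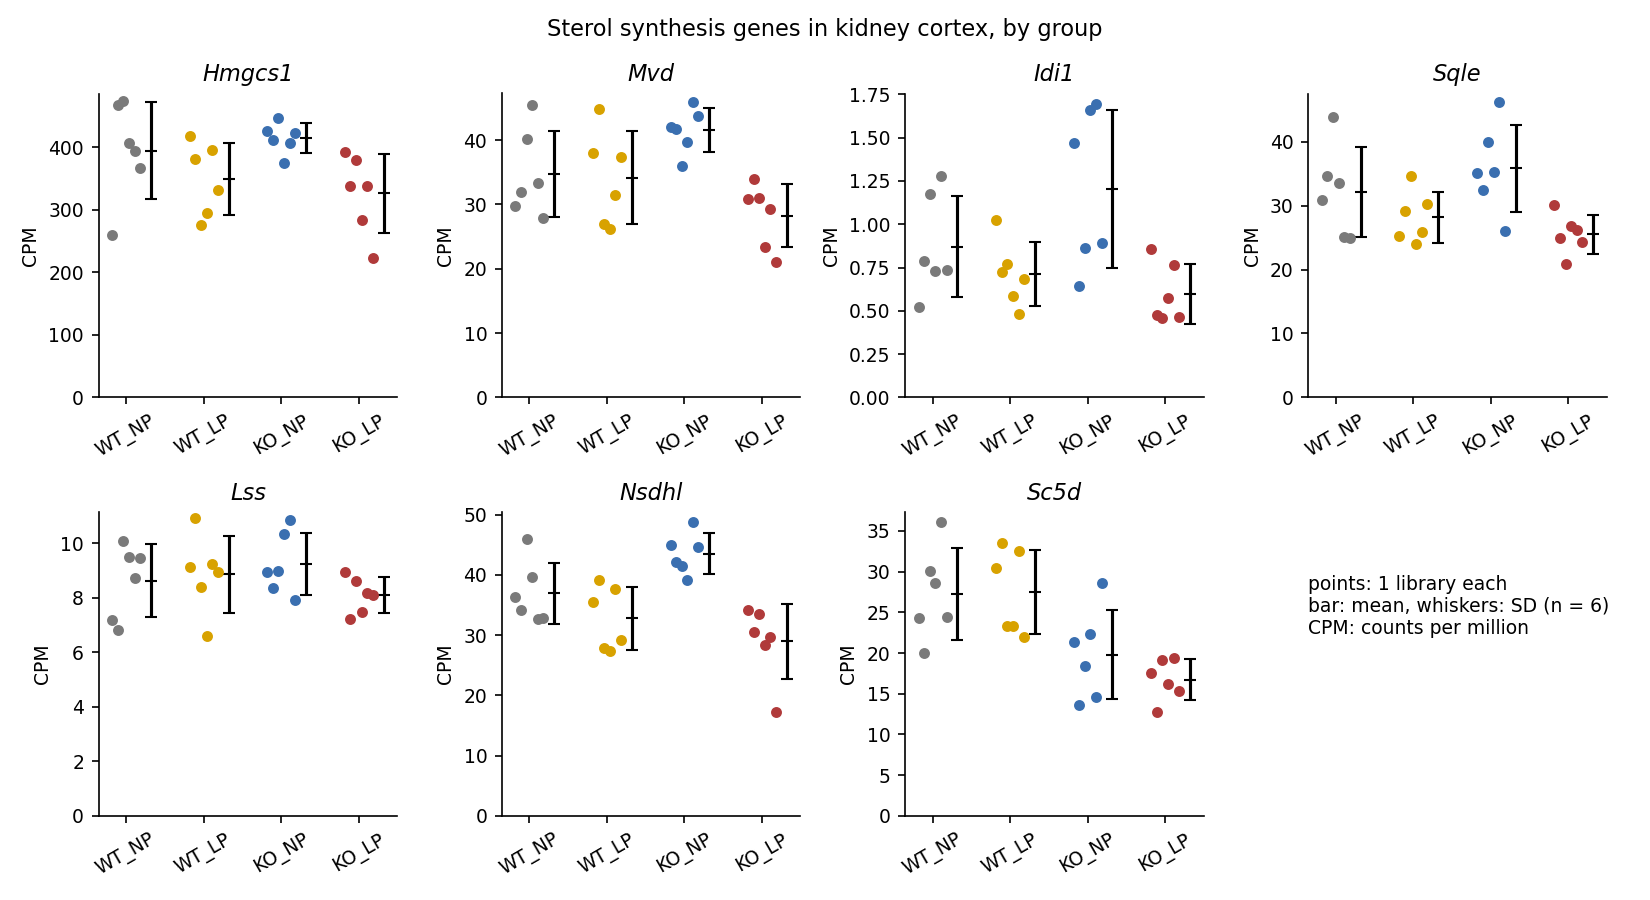
CPM (vertical axes, from 0) of the 7 sterol synthesis genes in the 4 groups; each point is 1 library, the bar is the mean and the whiskers the SD (n = 6). The KO_NP and KO_LP points of Mvd and Nsdhl do not overlap, and the Sc5d points of KO_LP (12.7 to 19.3 CPM) lie below those of WT_LP (22.0 to 33.5 CPM).

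In KO mice, 4 of the 7 sterol synthesis genes, Nsdhl, Mvd, Sqle and Idi1, were called lower on LP and none higher. All 4 calls were lost without KO_NP 5, without KO_LP 4 and KO_LP 6, or with 1 surrogate variable added to the model. The question is what LP changes when FGF21 is missing. Genes count as called where edgeR's quasi-likelihood test, with Benjamini-Hochberg adjustment over all 15165 genes, gave an adjusted p under 0.05, and by that rule 543 genes (3.58%) were lower on LP in KO. The median log2 fold of the 7 members was -0.49, against 0.03 over all genes, and all 7 were below 0, where 45.1% of all genes were. The groups did not overlap for Mvd and Nsdhl, as for 312 genes (2.06%) lower on LP.

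Nsdhl averaged 43.5 ± 3.40 CPM on NP and 28.9 ± 6.16 CPM on LP in KO (SD, n = 6). Its log2 fold was -0.59 (SE 0.129, edgeR adjusted p = 0.0189). For Mvd, with 41.5 ± 3.43 CPM on NP and 28.3 ± 4.95 CPM on LP, the log2 fold was -0.56 (SE 0.137, edgeR adjusted p = 0.0250). These falls amounted to ratios of 0.664 and 0.680 of LP to NP. Sqle averaged 35.8 ± 6.87 and 25.5 ± 3.05 CPM on NP and LP, a log2 fold of -0.49 (SE 0.135, edgeR adjusted p = 0.0367). Idi1 averaged 1.20 ± 0.457 and 0.599 ± 0.173 CPM, a log2 fold of -1.02 (SE 0.291, edgeR adjusted p = 0.0393). The Idi1 estimate is the largest of the 7 and also has the largest SE.

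Hmgcs1, Lss and Sc5d did not pass the test for LP in KO. Hmgcs1 averaged 415 ± 23.98 CPM on NP and 326 ± 63.3 CPM on LP, a log2 fold of -0.35 (SE 0.137, edgeR adjusted p = 0.105). The log2 folds of Lss and Sc5d were -0.20 (SE 0.119) and -0.24 (SE 0.168), with edgeR adjusted p of 0.289 and 0.361. For each of the 7 members, 6 of 6 KO_LP libraries lay below the KO_NP mean.

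The calls were close to the threshold and depended on single libraries. Of 24 fits that each left out 1 library, Nsdhl was called in 23, Mvd in 21, Idi1 in 17 and Sqle in 16 (edgeR). Over these fits the log2 fold ran from -0.64 to -0.48 for Nsdhl and from -0.62 to -0.49 for Mvd. It ran from -0.57 to -0.41 for Sqle and from -1.16 to -0.90 for Idi1. The number of genes called over the whole table moved too. It was 1087 with all libraries, 122 without KO_NP 5, 136 without KO_LP 4, 466 without KO_LP 6 and 2006 without KO_LP 1. Without KO_NP 5, the highest of its group in 5 members, no member was called, with edgeR adjusted p of 0.0513 for Nsdhl, 0.0621 for Mvd, 0.0899 for Sqle and 0.0946 for Idi1. Without KO_LP 4 or without KO_LP 6, Nsdhl alone was called: the edgeR adjusted p of Mvd was 0.0764 and 0.0508, that of Sqle 0.0777 and 0.0601, and that of Idi1 0.0959 and 0.0693. Idi1 also lost its call without KO_NP 1 (0.0698), KO_NP 4 (0.0799), KO_LP 2 (0.0610) or KO_LP 3 (0.0594). Sqle lost it without KO_NP 1 (0.0557), KO_NP 3 (0.0581), KO_NP 4 (0.0559), KO_LP 3 (0.0571) or KO_LP 5 (0.0517).

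With KO_LP 4 and KO_LP 6 both left out, no member was called, and 1 gene in the whole table was. The log2 folds were then -0.45 for Nsdhl (edgeR adjusted p = 0.105), -0.41 for Mvd (0.210), -0.50 for Sqle (0.189) and -0.94 for Idi1 (0.231). Adding 1 surrogate variable to the model also ended all 4 calls, with log2 folds of -0.44 for Nsdhl (edgeR adjusted p = 0.270), -0.30 for Mvd (0.445), -0.46 for Sqle (0.313) and -0.74 for Idi1 (0.471). All of these folds kept their sign.

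**Figure D2:**
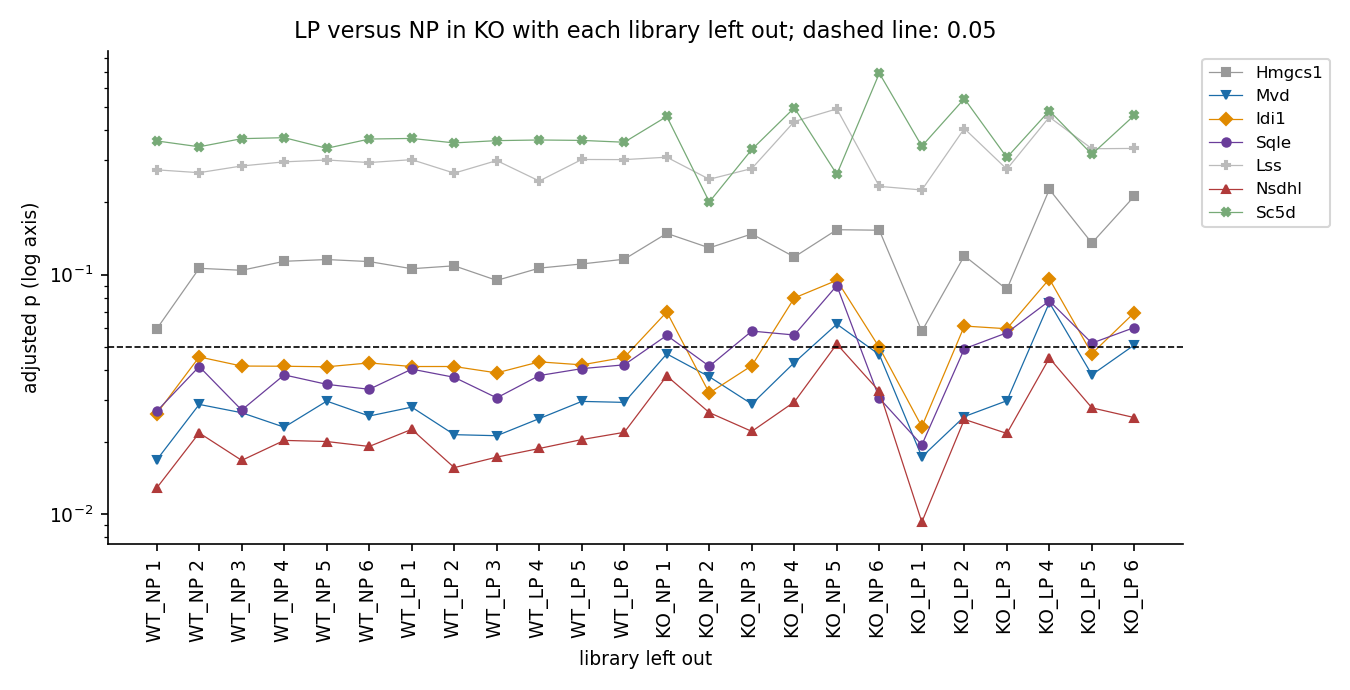
Adjusted p for LP against NP in KO (vertical log axis; edgeR quasi-likelihood) of each of the 7 genes when the library named on the horizontal axis is left out; the dashed line is 0.05. Nsdhl crosses the line once, without KO_NP 5 (0.0513), whereas Sqle and Idi1 cross it without several KO libraries.

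The low protein diet was not found to change any member in WT mice. The 7 log2 folds ran from -0.29 (Idi1, SE 0.277) to 0.04 (Lss, SE 0.117), with a median of -0.17, against -0.01 over all genes, and 5 of 7 were below 0. The fold was -0.18 (SE 0.137) for Hmgcs1, -0.03 (SE 0.135) for Mvd, -0.19 (SE 0.134) for Sqle, -0.17 (SE 0.127) for Nsdhl and 0.01 (SE 0.162) for Sc5d. No gene in the table passed the edgeR quasi-likelihood test here (0 of 15165, 0%), and 580 genes (3.82%), none of them a member, had an unadjusted p under 0.05. By other tools, DESeq2 called 14 genes, limma voom 6 and limma on normalized values 0.

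Whether LP acts differently in KO and WT was tested as the difference of the LP folds (KO minus WT). It was below 0 for all 7 members, with a median of -0.30 against 0.03 over all genes, and for none of them did it pass the adjusted test. Mvd differed by -0.53 (SE 0.193, unadjusted p = 0.0110, edgeR adjusted p = 0.227). Nsdhl differed by -0.42 (SE 0.181, unadjusted p = 0.0300, edgeR adjusted p = 0.270). These 2 had an unadjusted p under 0.05, as had 16% of all genes, and no gene was called (0%) by edgeR, limma voom or limma on normalized values, while DESeq2 called 117. For the other 5 members the difference ran from -0.17 (Hmgcs1, SE 0.194) to -0.73 (Idi1, SE 0.403), with edgeR adjusted p from 0.371 to 0.687. Thus the calls in KO and their absence in WT are not shown to differ.

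**Figure D3:**
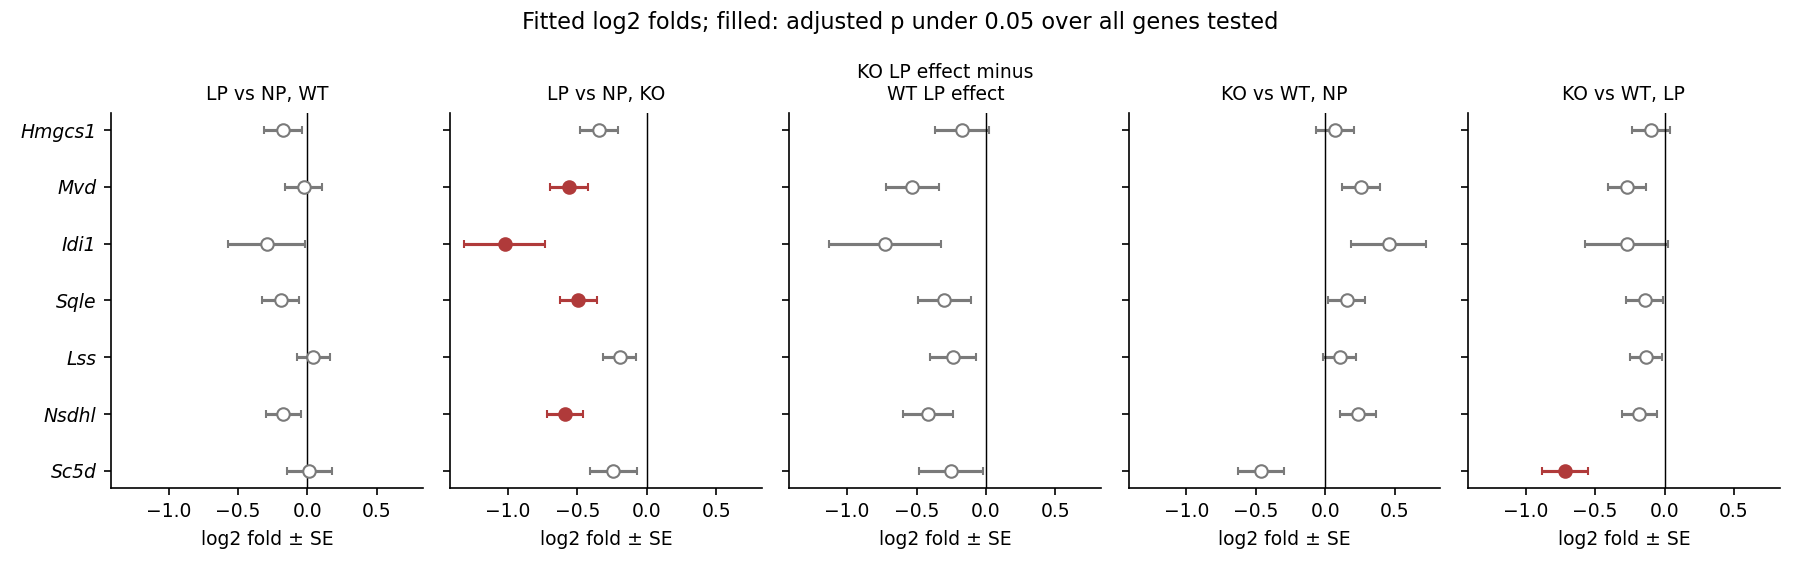
Fitted log2 folds ± SE (horizontal axes) of the 7 genes in the 5 comparisons; filled points have an edgeR adjusted p under 0.05 over all genes tested. Nsdhl, Mvd, Sqle and Idi1 are filled for LP in KO (-0.49 to -1.02), Sc5d for KO against WT on LP (-0.72), and none elsewhere.

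Sc5d was the only member called lower in KO than in WT mice, and this was on LP only. On LP, Sc5d averaged 16.7 ± 2.51 CPM in KO and 27.5 ± 5.17 CPM in WT (SD, n = 6), a ratio of 0.608 and a log2 fold of -0.72 (SE 0.166, edgeR adjusted p = 0.0200). All 6 KO_LP libraries were below all WT_LP libraries. By these rules 241 genes (1.59%) were called lower in KO on LP, and 180 (1.19%) were lower without overlap. On NP, Sc5d averaged 19.8 ± 5.51 CPM in KO and 27.3 ± 5.62 CPM in WT, a log2 fold of -0.47 (SE 0.165, unadjusted p = 0.00943) that was not called (edgeR adjusted p = 0.218), with 5 of 6 KO libraries below the WT mean. The Sc5d call on LP was lost without WT_LP 1 (edgeR adjusted p = 0.0523) or WT_LP 2 (0.0532), without KO_LP 4 and KO_LP 6 together (-0.68, 0.113) and with 1 surrogate variable (-0.59, 0.0904). Of the 10 proximal tubule markers, 7 were also below 0 for KO against WT on LP, with a median log2 fold of -0.38 against 0.02 over all genes, and none was called. The part of these markers in the Sc5d difference was not tested.

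The other 6 members did not pass a test between genotypes. On LP their log2 folds (KO against WT) ran from -0.10 (Hmgcs1, SE 0.137) to -0.27 (Mvd, SE 0.137, edgeR adjusted p = 0.254). On NP they lay on the other side of 0, from 0.07 (Hmgcs1, SE 0.137) to 0.46 (Idi1, SE 0.271, edgeR adjusted p = 0.507), with 0.26 (SE 0.136) for Mvd and 0.24 (SE 0.127) for Nsdhl. On NP 87 genes (0.574%) were called and no member was, while 1 member, Sc5d, had an unadjusted p under 0.05, as had 12.6% of all genes. For Mvd and Nsdhl, 6 of 6 KO_NP libraries lay above the WT_NP mean. The genotype and diet comparisons share these groups: the KO_NP libraries that stand high here are the baseline of the LP fold in KO.

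Genes of other steps of the pathway also had folds below 0 for LP in KO, and 3 of them were called lower. Of these 17 genes, all tested, 3 were called lower and none higher (edgeR), 16 had a fold below 0, and their median log2 fold was -0.27. In WT none was called and the median was -0.08. With the 7 members, 23 of 24 genes of the pathway were below 0 in KO and 17 of 24 in WT, and 22 of 24 had a lower fold in KO than in WT. None of the 17 was called without KO_LP 4 and KO_LP 6, without KO_NP 4, without KO_NP 5 or with 1 surrogate variable, and 1 was without KO_NP 2 or without any 1 of KO_LP 2 to KO_LP 6. The count called was 3 of the 17 other genes and 7 of 24 with the members, where 3.58% of all genes were called lower. Members and lists were chosen with earlier results of these data known, so these counts are a description and not a test.

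**Figure D4:**
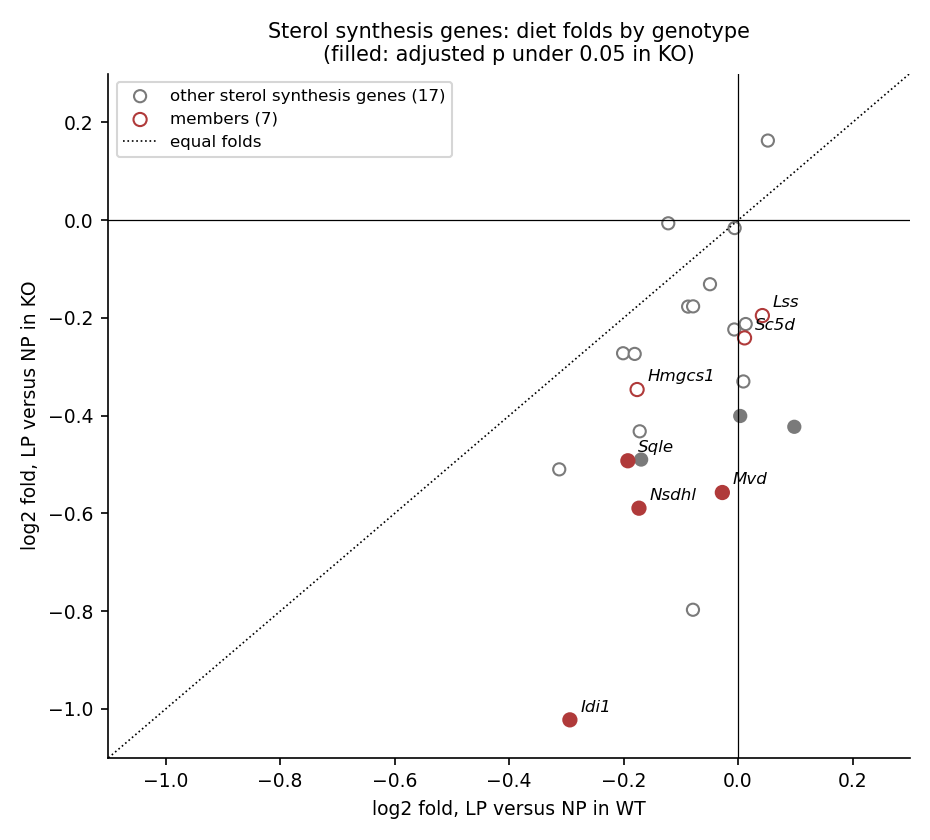
Log2 fold of LP against NP in WT (horizontal axis) and in KO (vertical axis) for the 7 members (red, named) and 17 other sterol synthesis genes (grey); filled symbols were called in KO and the dotted line marks equal folds. Of the 24 points, 22 lie below the dotted line.

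The called neighbours included Msmo1 and Dhcr7, which act after lanosterol. Msmo1, which oxidises the methyl groups that Nsdhl then helps remove, averaged 32.8 ± 6.42 CPM on NP and 23.4 ± 4.30 CPM on LP in KO, a log2 fold of -0.49 (SE 0.139, edgeR adjusted p = 0.0391). Dhcr7, which acts directly after Sc5d, fell by 0.40 on the log2 scale (SE 0.124, edgeR adjusted p = 0.0492). These calls held in 17 and 7 of the 24 fits with 1 library left out. Msmo1 lost its call without KO_LP 2, 3, 5 or 6 or KO_NP 2, 4 or 5 (edgeR adjusted p = 0.0563 to 0.0853). Dhcr7 lost it without any 1 of the KO libraries, WT_LP 1, 5 or 6 or WT_NP 5 or 6 (0.0501 to 0.104). Neither was called without KO_LP 4 and KO_LP 6, with log2 folds of -0.63 and -0.39 (edgeR adjusted p = 0.0867 and 0.232). With 1 surrogate variable, neither was called at log2 folds of -0.53 and -0.53 (edgeR adjusted p = 0.267 and 0.166). Dhcr7 was also not called by limma voom (adjusted p = 0.0630), with the minimum of 5 CPM (0.0551) or with no filter (0.0509).

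In the mevalonate arm, none of 6 other genes was called for LP in KO by the edgeR fit over all libraries, 5 were below 0 and the median log2 fold was -0.22. The smallest p among them were those of Acat2, a thiolase at the entry of the pathway (-0.33, SE 0.113, edgeR adjusted p = 0.0673), and Mvk, which phosphorylates mevalonate (-0.43, SE 0.160, edgeR adjusted p = 0.0849). The Acat2 groups did not overlap, at 93.5 to 118 CPM on NP and 64.3 to 88.9 CPM on LP, as for 2.06% of all genes lower on LP. Mean Acat2 was 83.8 CPM in WT_NP, 84.4 in WT_LP, 103 in KO_NP and 81.6 in KO_LP. KO_LP thus stood near the WT level, and KO_NP stood above all WT_NP libraries (log2 fold 0.29, SE 0.113, edgeR adjusted p = 0.265). Acat2 was called lower by DESeq2 (adjusted p = 0.0427), by limma voom (0.0387), in the edgeR fit of the compared groups alone (0.0419) and without WT_LP 2 (0.0446) or WT_NP 1 (0.0453).

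Of 10 genes of sterol sensing and SREBP control, 2 were called lower on LP in KO, where 3.58% of all genes were. Of these 10, 8 were below 0, where 45.1% of all genes were, and the median was -0.04 against 0.03 over all genes. Insig1, which holds SREBP in the endoplasmic reticulum and is itself an SREBP target, averaged 6.83 ± 2.04 CPM on NP and 4.18 ± 0.731 CPM on LP (log2 fold -0.72, SE 0.201, edgeR adjusted p = 0.0374). In WT, Insig1 averaged 4.41 ± 0.453 CPM on NP and 4.54 ± 1.36 CPM on LP, near the KO_LP level. KO_NP was the highest group, at a log2 fold of 0.64 against WT_NP (SE 0.198, edgeR adjusted p = 0.151). For LP in KO, Insig1 kept its call in 16 of 24 fits with 1 library left out. The call of Insig1 ended without KO_LP 2, 4, 5 or 6 or KO_NP 2, 3, 4 or 5 (edgeR adjusted p = 0.0553 to 0.0931). Insig1 was also not called without KO_LP 4 and KO_LP 6 together (0.184) or with 1 surrogate variable (-0.56, 0.412).

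Genes of cholesterol uptake, transport and efflux were not called for LP in KO by the edgeR fit over all libraries (0 of 14), with 7 below 0 and a median of 0.04. The smallest p here belonged to Abca1, the exporter of cholesterol to lipoproteins (0.62, SE 0.197, edgeR adjusted p = 0.0555), and Nr1h3, the oxysterol receptor LXR alpha (-0.24, SE 0.0895, edgeR adjusted p = 0.0827). Abca1 was called higher by DESeq2 (adjusted p = 0.0318), by limma voom (0.0450), with the minimum of 5 CPM (0.0469) and in the compared groups alone (0.0430). It was also called without WT_NP 1 (edgeR adjusted p = 0.0170), WT_NP 4 (0.0459), KO_LP 1 (0.0224) or KO_LP 3 (0.0463). Lipa, the lysosomal lipase that frees cholesterol from esters, was lower in KO than in WT on LP, at 207 ± 29.5 against 282 ± 44.3 CPM (log2 fold -0.45, SE 0.117, edgeR adjusted p = 0.0370). Lipa kept that call in 16 of 24 fits with 1 library left out, and lost it without KO_LP 2, 3, 4 or 5 or WT_LP 1, 2, 5 or 6 (edgeR adjusted p = 0.0570 to 0.0983) and without KO_LP 4 and KO_LP 6 together (0.153). It also lost it in the compared groups alone (0.0955) and with 1 surrogate variable (0.128).

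Between libraries of the same group, 3 of the 21 pairs of members had a Pearson correlation that passed the adjusted test, 2 of them also by Spearman's rho, and 1 without the 2 farthest libraries. These pairs join Hmgcs1, Mvd and Nsdhl, and no pair with Sqle, Idi1, Lss or Sc5d passed. After group means were removed from log2 CPM, Pearson's r over the 24 libraries was above 0 in 20 of the 21 pairs of members, with a median of 0.30. These points share library and depth. Mvd and Nsdhl had r = 0.73 (permutation p = 0.00035, adjusted over the 21 pairs 0.00735) and Spearman's rho = 0.74 (permutation p = 0.00069, adjusted 0.00724). Without the 2 libraries farthest from the median, KO_LP 4 and KO_LP 6, their r was 0.72 (permutation, adjusted p = 0.0583). Hmgcs1 and Nsdhl had r = 0.72 (permutation p = 0.00083, adjusted 0.00871) and rho = 0.74 (permutation p = 0.00048, adjusted 0.00724), and without WT_NP 1 and KO_LP 6, r was 0.73 (permutation, adjusted p = 0.0157). Hmgcs1 and Mvd had r = 0.64 (permutation p = 0.00448, adjusted 0.0314), rho = 0.62 (permutation p = 0.00728, adjusted 0.051), and r = 0.57 without 2 libraries (permutation, adjusted p = 0.132).

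Sqle and Sc5d were the only pair with r below 0, at -0.35 (permutation p = 0.145, adjusted 0.251). Sqle had a median r of 0.22 with the other members, and Mvd had 0.39. Whether these medians differ was not tested.

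The 7 members were summarised per library by the mean of their z-scores over the 24 libraries. The lowest were KO_LP 6 (-1.69) and KO_LP 4 (-1.05), and the highest WT_NP 3 (1.21) and KO_NP 5 (1.14). Within WT, the lowest were WT_LP 4 (-0.99) and WT_NP 1 (-0.57). Proximal tubule markers, summed in CPM, were lowest in the same 2 KO libraries, at 4084 in KO_LP 6 and 4885 in KO_LP 4, followed by WT_NP 1 at 5452. These sums had a median of 8840 CPM in KO_NP (8162 to 9724) and 6874 CPM in KO_LP (4084 to 7772), without overlap, as for Mvd and Nsdhl. Of the 10 markers, 2 were called lower for LP in KO, where 3.58% of all genes were. All 10 were below 0, where 45.1% of all genes were, with a median log2 fold of -0.35 against 0.03. Without KO_LP 4 and KO_LP 6, none was called, 8 were below 0 and the median was -0.25, and the sums of the other 4 KO_LP libraries (6752 to 7772 CPM) still lay below those of KO_NP. In WT the sums overlapped, at 5452 to 9105 CPM on NP and 5493 to 10318 CPM on LP. The part of the tubule marker level in the members' fall was not tested.

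Immune marker genes had folds above 0 for LP in KO. Macrophage and dendritic cell markers, all 10 in the table, summed to 410 to 693 CPM in KO_NP and 546 to 1954 CPM in KO_LP, with 3 of 10 called higher (edgeR), where 3.59% of all genes were, and a median log2 fold of 0.96. None was called without KO_NP 5, without KO_LP 4 (median 0.65), without KO_LP 6 (1.02) or without both KO_LP libraries (0.68, sums of 546 to 1022 CPM). With 1 surrogate variable, 6 of these 10 folds were below 0. In WT, 1 of the 10 folds for LP was below 0 (median 0.31) and none was called. The WT sums overlapped, at 440 to 1518 CPM on NP and 424 to 1342 CPM on LP. T, B and plasma cell markers, all 10 in the table, summed to 111 to 205 CPM in KO_NP and 156 to 1192 CPM in KO_LP. The second highest KO_LP sum was 279 CPM, and the highest was mostly Jchain (1083 CPM). Of the 9 markers tested, 1 was called higher. None was called without KO_LP 4 and KO_LP 6, or without any 1 of KO_LP 2 to KO_LP 5, KO_NP 1 to KO_NP 6, WT_NP 6, WT_LP 1 or WT_LP 4. The library with the highest of these sums, KO_LP 5, had a member mean of -0.48, above 4 of the other 5 KO_LP libraries. In WT, by contrast, 8 of the 9 T, B and plasma cell folds for LP were below 0 (median -0.66), and none was called. Adipocyte markers summed to 58.9 to 156 CPM in KO_NP and 96.7 to 439 CPM in KO_LP, with 4 of 7 markers in the table and Adipoq at 0 in 15 libraries. Adrenal cortex markers, 2 of 8 in the table, summed to 1.38 to 3.59 CPM in KO_NP and 1.96 to 15.6 CPM in KO_LP. Without KO_LP 4 and KO_LP 6, the sums in KO_LP reached 174 CPM for adipocyte and 3.75 CPM for adrenal cortex markers. The part of these markers in the results was not tested beyond the fits without KO_LP 4 and KO_LP 6.

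**Figure D5:**
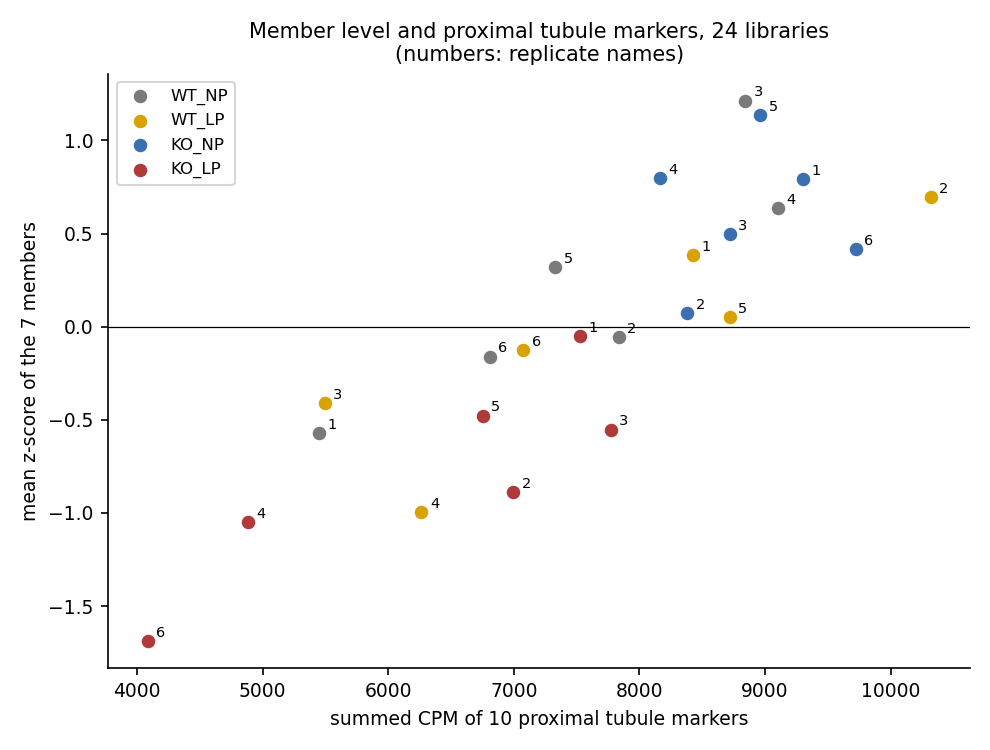
Mean z-score of the 7 members (vertical axis) against the summed CPM of 10 proximal tubule markers (horizontal axis), 1 point per library, coloured by group and numbered by replicate name. KO_LP 6 (4084 CPM, -1.69) and KO_LP 4 (4885 CPM, -1.05) lie at the lower left, and the KO_NP libraries lie between 8162 and 9724 CPM.

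Genes whose deviations from the group means were among the most like the members' mean, among 10444 genes averaging 5 CPM or more in the 24 libraries, were Lactb2 (r = 0.92), Dbt (0.90), Cyp2j11 (0.89), Tcaim (0.88), Slc44a4 (0.88), Mccc1 (0.88), Ankrd13c (0.88), Lypla1 (0.88) and Tle5 (0.88). They were chosen for this likeness, so these values are a description. Without KO_LP 4 and KO_LP 6, the r of these 9 genes ran from 0.83 (Tle5) to 0.91 (Lactb2).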

How the data were processed

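RNA of 24 kidney cortex libraries was read as forward reads of 50 bases with Lexogen QuantSeq, per the labels' protocols. The authors deposited raw counts per gene. They also deposited normalized values, which are a signal: each is the deposited count over its library's size factor (0.567 to 1.4), as tested on the files. GRCm38 and DESeq2 1.22.2 are named in the submitters' processing notes; for aligner, counter and strand setting, names are not given in the sources used. Both tables held 16921 genes with mean counts of at least 3, of which 14208 had a symbol; coordinates came from GENCODE M21 (GRCm38) and promoters from RefSeq.

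Raw counts were fitted in R 4.3.3 with edgeR 4.0.16 (filterByExpr, TMM, robust quasi-likelihood, 4 group means over 24 libraries), which tested 15165 genes. Tests were two-sided and adjusted by Benjamini and Hochberg over the tested genes; the threshold on adjusted p was 0.05. Standard errors are the fold divided by the root of the test statistic. The fit was tested on simulated data. CPM values use the TMM factors. Correlations used log2 CPM (prior count 2) with 100000 permutations within groups, two-sided. The alternatives were DESeq2 size factors, no filter, a minimum of 5 CPM in 6 or more libraries, a fit of the compared groups alone, limma 3.58.1 voom with quality weights, DESeq2 1.42.0, limma on log2 of the normalized values plus 1, 1 surrogate variable (sva 3.50.0) and leaving out each library. Leaving out KO_LP 4 and KO_LP 6 together was chosen after seeing the data. Tables and figures were made in Python 3.11.15 (pandas 2.3.3, numpy 2.4.6, scipy 1.17.1, matplotlib 3.10.9).

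The members and gene lists were chosen with earlier results of these data known. The text names the 7 members, of each sterol list every gene called in a comparison and the 2 genes with the smallest p for LP in KO, and the 10 genes most like the members' mean. Some genes that this rule takes are counted but not reported by name here. Chi-square per degree of freedom between replicates, which is 1 for counting error alone, was 5.59 to 63.9, so all counted as separate libraries; the biological coefficient of variation was 19.6%.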

Additional observations from a re-analysis of the deposited data

Results flagged for a closer look

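Nsdhl in KO_LP 6 was far from its group: it stood at 17.2 CPM, and the other 5 KO_LP libraries at 28.4 to 34.2 CPM. The gap to the nearest library was 0.657 of the group's range, above Dixon's critical value for 6 samples, in 1 of the 28 member groups checked; chance flags about 1 group in 20. The same library had the highest adipocyte and adrenal cortex marker sums (439 and 15.6 CPM) and the lowest proximal tubule marker sum (4084 CPM). Its adipocyte and adrenal cortex sums were mostly Fabp4 and Akr1b7. Without it, Nsdhl was still called lower on LP in KO (log2 fold -0.48, edgeR adjusted p = 0.0253).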

How the results depend on the processing

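In the 8 other settings of the fit, Nsdhl, Mvd and Sqle were called for LP in KO in 7 each, and Idi1 in 5 of 7 (it was not tested under the filter of 5 CPM, and fitting the compared libraries only gave an edgeR adjusted p of 0.0530). The adjusted p over these settings ran from 0.00122 to 0.270 for Nsdhl and from 0.00496 to 0.445 for Mvd. Sc5d in KO against WT on LP was called in 7 of 8. For LP in KO, all folds of the 7 members were below 0 except that of Lss with 1 surrogate variable, which was 0.002. Members called for LP in KO were 0 with 1 surrogate variable, 0 without KO_LP 4 and KO_LP 6, and 0 to 4 with 1 library left out; for KO against WT on LP they were 0, 0 and 0 to 1.

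Genes called over the whole table moved more. For LP in WT, voom called 6 and DESeq2 14, and leaving out 1 library gave 0 to 2. For LP in KO, voom called 1744, DESeq2 1839, 1 surrogate variable left 2 and the fit without KO_LP 4 and KO_LP 6 left 1, and leaving out 1 library gave 122 to 2006. For the difference of LP folds DESeq2 called 117. For KO against WT on NP, voom called 154, DESeq2 246, the fit without KO_LP 4 and KO_LP 6 148, and leaving out 1 library gave 52 to 151. On LP, the compared libraries alone gave 161, voom 904, DESeq2 910, 1 surrogate variable 235, the fit without KO_LP 4 and KO_LP 6 144, and leaving out 1 library gave 180 to 733. Pairs of members with an adjusted correlation p under 0.05 numbered 3, and 1 without the 2 farthest libraries. The cause of these moves was not tested. Depth limits Idi1 most, at 6 to 24 counts per library. No paired analysis was possible because the labels give no replicate numbers shared between groups.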
